A study of Mus musculus with 2 samples.

Results

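cDC2-like dendritic cells were 304 cell barcodes, of 19261 deposited and 18812 that passed quality limits, chosen by a rule on their own RNA counts. A barcode marks 1 droplet, and a unique molecular identifier (UMI) marks 1 captured RNA molecule. The quality limits were 500 or more UMIs, 200 or more genes, and mitochondrial UMIs of 10% or less. A barcode within these limits was a member when it held at least 2 UMIs of *Cd209a* or at least 1 of *Flt3*, at least 20000 counts per 1000000 of its own UMIs (CPM) of *Cd74*, and under 4000 CPM of *C1qa*, *C1qb* and *C1qc* together. It also had to hold 0 UMIs of *Ccr7*, *Xcr1*, *Clec9a*, *Siglech*, *Cd79a* and *Cd3e*. This gave 103 members in UEIS KI and 201 in UEIS LSL.

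The barcodes came from droplet 3' single-cell RNA sequencing of CD45+ (immune) cells sorted from subcutaneous tumours of MC38, a mouse colon adenocarcinoma line, grown in C57BL/6 mice. The compared groups were UEIS KI mice and UEIS LSL mice, with 1 library each. The labels do not expand either name, give the age or number of the mice, or say whether tumours were pooled, so no check of a targeted gene was made. With 1 library per group there was no test across samples, and every interval below covers counting error only.

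Conventional type 2 dendritic cells (cDC2) take up antigen, cut it into peptides, load these on MHC class II and show them to CD4+ T cells. They arise under the receptor tyrosine kinase FLT3 and the transcription factor IRF4, and mouse cDC2 commonly carry the lectins CD209A and CLEC10A. In tumours they share many genes with monocyte-derived cells and macrophages, which is why low complement C1q and absent markers of other dendritic cells and lymphocytes entered the rule. Type I interferons, and in part interferon-gamma, act through response elements in the promoters of antiviral genes.

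The members held 863066 UMIs in UEIS KI and 1907813 in UEIS LSL. Their median depth was 7115 UMIs (range 2552 to 26996) in UEIS KI and 8364 (range 508 to 33770) in UEIS LSL, with medians of 2359 and 2564 genes. *Ptprc*, which encodes CD45, was seen in 87 of 103 UEIS KI members and in 178 of 201 UEIS LSL members. A doublet caller marked 1 UEIS KI member and 8 UEIS LSL members, and these were kept. The libraries shared 34 barcode sequences, of which 1 was a member in either library and 0 were members in both.

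Members took a smaller share in UEIS KI. They were 1.09% (95% interval 0.891 to 1.32, Clopper-Pearson) of the 9442 barcodes that passed in UEIS KI and 2.15% (1.86 to 2.46) of 9370 in UEIS LSL, a log2 ratio of -0.98 (-1.33 to -0.63). By entry gene, the shares differed most for members with *Cd209a*, a C-type lectin, alone. Members with *Cd209a* alone numbered 59 in UEIS KI and 144 in UEIS LSL, a log2 ratio of shares of -1.30 (-1.76 to -0.85). Members with both genes numbered 22 in UEIS KI and 35 in UEIS LSL, at -0.68 (-1.52 to 0.13). Members with *Flt3* alone numbered 22 in UEIS KI and 22 in UEIS LSL, at -0.01 (-0.93 to 0.91). *Flt3*-only members were thus 21.4% (13.9 to 30.5) of members in UEIS KI and 10.9% (6.99 to 16.1) in UEIS LSL. Their share ratio is widely bounded, and they are also members in which fewer than 2 *Cd209a* UMIs were captured. Their median depth was 5928 UMIs in UEIS KI and 7825 in UEIS LSL, and the part of depth in the split was not tested. Among all barcodes that passed, 152 in UEIS KI and 217 in UEIS LSL held *Flt3*, at -0.52 (-0.83 to -0.22).

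**Figure D1:**
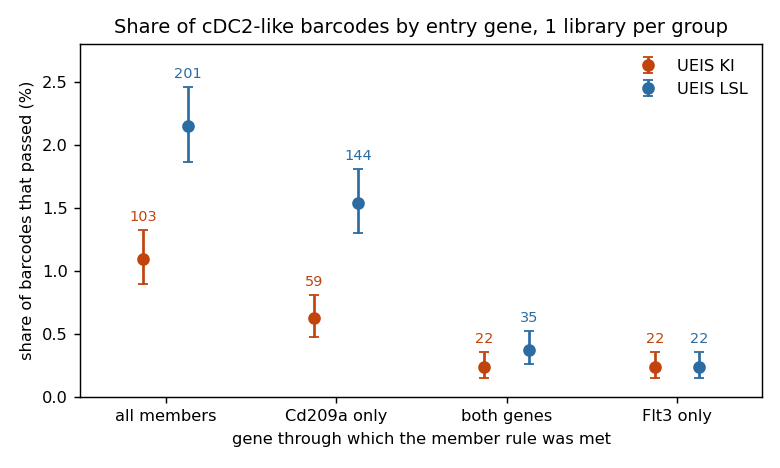
Share of barcodes that passed the quality limits (%, vertical axis) for all cDC2-like members and by the gene through which the rule was met; points are the share in 1 library, bars are exact 95% intervals of counting error, and the numbers above are members. The UEIS KI share lies below the UEIS LSL share for all members and for *Cd209a* alone, while both libraries hold 22 *Flt3*-only members.

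The pool of barcodes with *Cd74* at or above the limit was itself smaller, at 735 (7.78%) in UEIS KI and 2149 (22.9%) in UEIS LSL. Of these, members made up 14.0% (11.6 to 16.7) in UEIS KI and 9.35% (8.15 to 10.7) in UEIS LSL. *Cd74* encodes the invariant chain of MHC class II, so this pool also holds macrophages and B cells. At the *Cd74* limit the nearest member had 20119.7 CPM in UEIS KI and 20169 in UEIS LSL, and the nearest barcode outside had 19872 in UEIS KI and 19532 in UEIS LSL. At the C1q limit the nearest member had 3827 CPM in UEIS KI and 3948 in UEIS LSL, and the nearest outside had 4026 in UEIS KI and 4199.82 in UEIS LSL. Barcodes that met all but the *Cd74* limit numbered 34 in UEIS KI and 53 in UEIS LSL, and those that met all but the C1q limit 9 in UEIS KI and 57 in UEIS LSL. Exactly 2 *Cd209a* UMIs were held by 17 members in UEIS KI and 24 in UEIS LSL, and 16 barcodes just outside in UEIS KI and 36 in UEIS LSL held 1 and no *Flt3*. Of members with *Flt3*, 39 in UEIS KI and 43 in UEIS LSL held exactly 1 UMI of it.

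The label was checked, over all members together, against *Clec10a*, the marker that the rule did not use. It is less sure for *Flt3*-only members, as given below by entry gene. *Clec10a*, a galactose-binding lectin on chromosome 11 (chr11:70156197-70170834, plus strand, mm10), reached 175 CPM, here the gene's UMIs summed over members per 1000000 summed UMIs, in UEIS KI members and 227 in UEIS LSL members. The other barcodes that passed had 30.3 CPM in UEIS KI and 37.6 in UEIS LSL. After every barcode was thinned to 2000 UMIs, with 0 and 4 shallower members left out, *Clec10a* was seen in 23.3% of UEIS KI members and 30.5% of UEIS LSL members. In barcodes with at least 2 *Cd3e* UMIs, T cell-like barcodes that should lack it, the thinned shares were 1.72% in UEIS KI and 1.94% in UEIS LSL. In *Cd74*-high C1q-high barcodes, they were 3.43% in UEIS KI and 9.55% in UEIS LSL (unthinned 14.6% and 29.4%). Unthinned, the shares in UEIS KI and UEIS LSL were 53.4% and 59.2% of members, at median depths of 7115 and 8364 UMIs, and 1.16% and 4.58% of *Cd3e* barcodes, at 2446 and 5283 UMIs.

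Other genes that mark dendritic cells also stood higher in members than in the remaining barcodes of both libraries, as a description, since the cells were chosen on their RNA. *Zbtb46*, a transcription factor of conventional dendritic cells, had 27.8 CPM in UEIS KI members and 24.6 in UEIS LSL members, against 1.99 and 2.51 in the other barcodes of UEIS KI and UEIS LSL. *Itgax*, which encodes CD11c, had 227 and 219 CPM in UEIS KI and UEIS LSL members, against 25.7 and 49.6 in other barcodes. *Irf4* had 40.6 and 25.2 CPM in members of UEIS KI and UEIS LSL, against 4.30 and 5.41. *Sirpa*, a receptor of cDC2 that macrophages carry too, was no higher in members, at 205 CPM in UEIS KI members and 219 in UEIS LSL members against 294 and 277 in other barcodes.

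Ranked by the ratio of pooled CPM in members to that in other barcodes, among genes of at least 200 CPM in the members of both libraries, *Cd209a* led at 83.2, as the rule made it. Next came *Klrd1*, which encodes the CD94 lectin of NK cells and was 26.7 times as high, and *H2-DMb2*, a chain of the peptide editor of MHC class II, at 16.6. *Ifitm1*, an interferon-inducible membrane protein gene, stood at 11.8, *Il1r2*, the decoy receptor for interleukin 1, at 9.68, and the chemokine gene *Ccl17* at 9.28. The lectin gene *Mgl2* stood at 9.14, the transcriptional co-repressor gene *Cbfa2t3* at 8.62, *H2-Eb1* at 7.32 and the aspartic protease gene *Napsa* at 7.13. Thinned, *Mgl2* was seen in 63.1% of UEIS KI members and 66.0% of UEIS LSL members. It was also seen in 27.5% and 48.1% of the *Cd74*-high C1q-high barcodes of UEIS KI and UEIS LSL. *Klrk1*, which encodes NKG2D, stood at 12.3 but below the level limit of this ranking. Macrophage genes were low, with ratios of 0.313 for lysozyme *Lyz2*, 0.143 for osteopontin *Spp1* and 0.0761 for *C1qa*, whose limit the rule set.

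**Figure D2:**
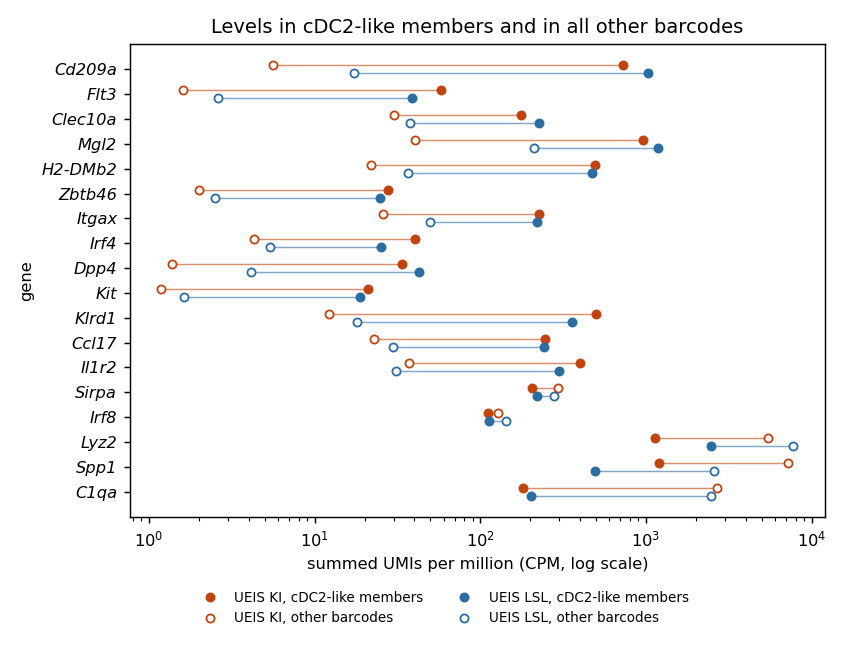
Level from summed UMIs (CPM, logarithmic horizontal axis) of 18 genes in cDC2-like members (filled) and in all other barcodes that passed (open), for UEIS KI (upper of each pair) and UEIS LSL (lower). *Clec10a*, *Zbtb46* and *Klrd1* lie to the right in members of both libraries, *Sirpa* and *Irf8* lie close together or slightly to the left, and *Lyz2*, *Spp1* and *C1qa* lie to the left.

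Genes of T cells, B cells, fibroblasts, endothelial cells and erythroid cells were few in members, but those of macrophages and monocytes were not. The monocyte list summed to 2066 CPM in UEIS KI and 2174 in UEIS LSL, with 0 of its 16 genes at 0 UMIs. The mature dendritic cell list summed to 736 CPM in UEIS KI and 777 in UEIS LSL, and the cDC1 list to 497 and 593. The T cell list summed to 9 UMIs in UEIS KI and 3 in UEIS LSL, with *Cd3e* at 0 by the rule. The B cell list summed to 10 and 15 UMIs in UEIS KI and UEIS LSL, the fibroblast list to 17 and 67, the endothelial list to 12 and 24, and the erythroid list to 7 and 0. In the NK cell list only *Klrk1* had 50 UMIs or more, and in the neutrophil list only *Il1r2*. The list of epithelial and MC38 genes, which the tumour cells may express, had 2 measured genes, *Cdh1* and *Areg*, and summed to 134 CPM in UEIS KI and 116 in UEIS LSL, with its keratins *Krt8*, *Krt18* and *Krt19* at 0 UMIs in both. The macrophage list was present at 4895 CPM in UEIS KI members and 6283 in UEIS LSL members, with 14 of its 16 measured genes below 0 on the log2 scale and none of its 20 genes at 0 UMIs. It includes *C1qa*, *C1qb* and *C1qc*, which the rule limited, and *Lyz2* and *Spp1*, which are set against background below.

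Across the transcriptome the members of the libraries differed in few genes. Among 5678 genes with at least 50 UMIs over both libraries, called measured below, 142 (2.5%) were at least 1.5-fold higher in UEIS KI and 175 (3.08%) at least 1.5-fold lower, with the counting interval of the ratio on that side of 1. The median log2 ratio over measured genes was 0.01. A gene is called higher or lower below when it met this rule, and all log2 ratios are UEIS KI over UEIS LSL. Where genes have close relatives (*Clec10a* and *Mgl2*, *Cd209a* and *Cd209d*, *Lyz1* and *Lyz2*, the *Ifi200*, *Ifit*, *Slfn* and MHC class I families), how shared reads were divided is not given in the sources used here, so values of single members of such families are less certain.

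Many genes induced by type I interferon were lower in UEIS KI members. Of 70 genes in the list, 44 were measured, 1 was higher, 23 were lower and 20 were neither, with a median log2 ratio of -0.61. Over all measured genes 2.5% were higher and 3.08% lower. *Isg15*, a ubiquitin-like protein gene (chr4:156199424-156200818, minus strand, mm10), had 53 UMIs or 61.4 CPM in UEIS KI and 378 UMIs or 198 CPM in UEIS LSL, a log2 ratio of -1.69 (-2.13 to -1.27). It was seen in 16 UEIS KI members and 80 UEIS LSL members, and after thinning in 8.74% of members in UEIS KI and 18.8% in UEIS LSL. No barcode set here should lack *Isg15*, and *Cd3e* barcodes had thinned shares of 15.5% in UEIS KI and 29.1% in UEIS LSL.

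*Ifit1*, which encodes a binder of viral RNA, had 13.9 CPM in UEIS KI and 58.7 in UEIS LSL, at -2.08 (-3.07 to -1.22), with 9 of its 12 UEIS KI UMIs in 1 member. *Oasl2*, of the oligoadenylate synthetase family, had 18.5 CPM in UEIS KI and 49.8 in UEIS LSL, at -1.43 (-2.29 to -0.65). *Irf7*, the transcription factor that amplifies interferon production, had 26.6 CPM in UEIS KI and 59.2 in UEIS LSL, at -1.15 (-1.87 to -0.50), and stood at 0.20 where *Cd74* had to reach 40000 CPM.

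*Ly6a*, which encodes the surface protein Sca-1, had 138 CPM in UEIS KI and 273 in UEIS LSL, at -0.98 (-1.28 to -0.69). *Ifi27l2a* had 356 CPM in UEIS KI and 606 in UEIS LSL, at -0.77 (-0.96 to -0.59). Members of the *Ifi200* family, DNA sensors and transcriptional regulators, were also lower, with *Ifi211* at -1.64, *Ifi204* at -1.18, *Ifi209* at -0.86 and *Ifi203* at -0.59 (*Ifi204* turned to 0.19 at the higher *Cd74* limit), while *Ifi205* stood at -0.13 and *Ifi207* at -0.38. The list's most abundant genes differed less. *Ifitm3*, a barrier to virus entry, had 1833 CPM in UEIS KI and 2239 in UEIS LSL, at -0.29 (-0.37 to -0.20). *Ly6e* had 707 CPM in UEIS KI and 793 in UEIS LSL, at -0.17 (-0.30 to -0.03). *Ifih1*, which encodes the RNA sensor MDA5, was the list's 1 higher gene, with 39 UMIs or 45.2 CPM in UEIS KI and 45 UMIs or 23.6 CPM in UEIS LSL, at 0.94 (0.28 to 1.59), with 12 of the UEIS KI UMIs in 1 member.

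*Rsad2*, which encodes the antiviral enzyme viperin (chr12:26442746-26456452, minus strand, mm10), had the ratio bound farthest from 1 in the list but rested on few cells. It had 16 UMIs in 3 UEIS KI members (18.5 CPM) and 186 UMIs in 20 UEIS LSL members (97.5 CPM), at -2.39 (-3.23 to -1.66). Without the 5% of members with the most *Rsad2* UMIs in each library (5 in UEIS KI and 10 in UEIS LSL) 0 CPM remained in UEIS KI and 5.77 in UEIS LSL. Among members with at least 40000 CPM of *Cd74* the ratio turned to 0.99. The median of the whole list stayed below 0 in both cases, at -0.78 without the top 5% for each gene and -0.40 at the higher *Cd74* limit.

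Member by member, both libraries spanned a wide range of the list. Per member, the list stood between 1559 and 16447 CPM in UEIS KI, with a median of 4130, and between 1436 and 28049 in UEIS LSL, with a median of 5459. The ranges overlapped, and that of UEIS LSL reached higher. Above the upper quartile of UEIS LSL, 8857 CPM, lay 11 of 103 UEIS KI members (10.7%, 5.45 to 18.3) and 50 of 201 UEIS LSL members. The top 10% of members by list UMIs held 31.5% of the list's UMIs in UEIS KI and 30.4% in UEIS LSL.

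**Figure D3:**
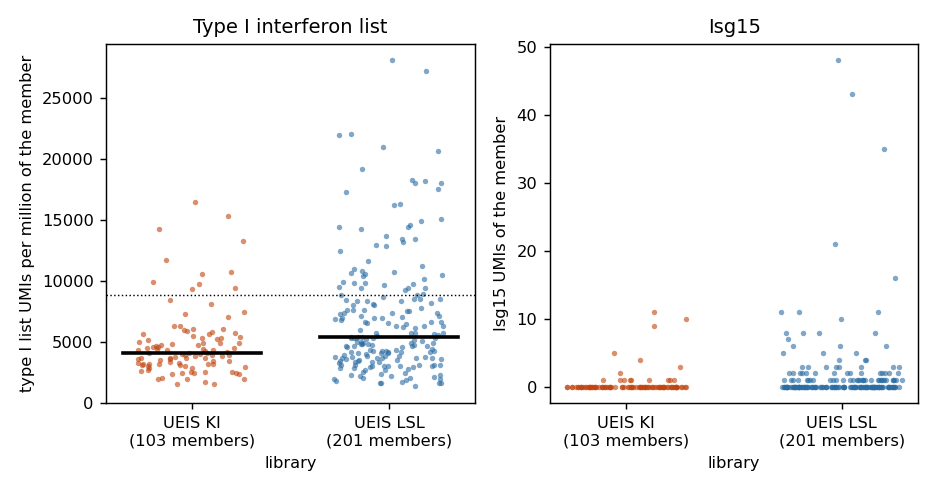
Left, the type I interferon list as CPM of each cDC2-like member; right, *Isg15* UMIs of each member; each point is 1 member, thick lines are medians of 4130 in UEIS KI and 5459 in UEIS LSL, and the dotted line is the UEIS LSL upper quartile of 8857. The medians differ while the ranges overlap, and 11 UEIS KI members lie above the dotted line.

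The promoters of *Rsad2*, *Isg15* and *Cxcl10* are shown because these genes were among the lower ones and the windows hold letters of the interferon response element. They are the 250 bases before the RefSeq transcription start on GRCm38.p6, 5' to 3' on the gene's strand, with capitals for each match of GAAA, any 2 bases and GAAA, the core of the interferon-stimulated response element, on either strand. The match begins 120 bases before the start in *Rsad2*, 78 in *Isg15*, which has 3 overlapping matches, and 213 in *Cxcl10*.
Rsad2 promoter (chr12:26456453-26456702, minus strand): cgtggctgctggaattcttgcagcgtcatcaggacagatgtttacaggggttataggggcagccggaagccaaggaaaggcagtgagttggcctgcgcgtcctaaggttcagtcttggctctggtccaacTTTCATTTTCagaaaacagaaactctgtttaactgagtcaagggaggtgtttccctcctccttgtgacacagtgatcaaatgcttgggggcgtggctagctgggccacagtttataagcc
Isg15 promoter (chr4:156200819-156201068, minus strand): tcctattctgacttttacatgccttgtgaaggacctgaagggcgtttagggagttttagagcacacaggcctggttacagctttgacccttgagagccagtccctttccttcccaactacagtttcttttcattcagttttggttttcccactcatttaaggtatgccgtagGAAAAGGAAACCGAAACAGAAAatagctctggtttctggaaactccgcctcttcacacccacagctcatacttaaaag
Cxcl10 promoter (chr5:92348890-92349139, minus strand): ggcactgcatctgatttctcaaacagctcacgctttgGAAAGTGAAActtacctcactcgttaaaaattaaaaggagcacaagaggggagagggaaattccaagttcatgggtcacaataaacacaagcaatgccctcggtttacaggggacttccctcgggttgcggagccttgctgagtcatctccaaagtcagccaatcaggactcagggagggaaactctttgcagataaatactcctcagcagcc

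In windows from 250 bases before to 50 after the start, 16 of the 34 measured type I genes with a RefSeq promoter (47.1%) held this motif, against 1079 of 27025 genes overall (3.99%). It was in 7 of 17 lower genes and 8 of 16 that were neither. Of 11 measured interferon-gamma genes with a promoter, 7 held it, 4 of 7 lower genes among them. TTCNNNGAA, the core of the gamma-activated site, was in 3 of the 34 type I genes, 3 of the 11 interferon-gamma genes and 9.55% of all genes. A match describes the letters and is not evidence of binding.

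Several interferon-gamma genes were lower as well. Of 28 genes 13 were measured, 0 were higher, 7 were lower and 6 were neither, with a median log2 ratio of -0.79, beside 2.5% higher, 3.08% lower and a median of 0.01 over all measured genes. *Cxcl10*, a chemokine gene whose product draws CXCR3+ T cells (chr5:92346638-92348889, minus strand, mm10), had 95 UMIs or 110 CPM in UEIS KI and 510 UMIs or 267 CPM in UEIS LSL, at -1.28 (-1.61 to -0.96). *Cxcl9*, a ligand of the same receptor, had 19 UMIs in 3 UEIS KI members (22.01 CPM) and 150 UMIs in 23 UEIS LSL members (78.6 CPM), at -1.84 (-2.61 to -1.14). Without the top 5% of members 0 CPM of *Cxcl9* remained in UEIS KI and 12.6 in UEIS LSL. Thinned, *Cxcl10* was seen in 7.77% of members in UEIS KI and 16.2% in UEIS LSL. In *Cd3e* barcodes its thinned shares were higher, at 27.6% in UEIS KI and 31.1% in UEIS LSL. The members' shares thus lay below those of *Cd3e* barcodes, and the *Cxcl10* difference is not read as one of member expression. The part of free RNA in the members' *Cxcl10* level was not tested.

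*Gbp2*, an interferon-induced GTPase gene (chr3:142620602-142638008, plus strand, mm10), had 7 UMIs in 6 UEIS KI members and 81 in 34 UEIS LSL members, or 8.11 CPM in UEIS KI and 42.5 in UEIS LSL, at -2.39 (-3.75 to -1.28). *Fcgr4*, an activating Fc receptor gene, stood at -1.16 (-1.98 to -0.42) and *Cd274*, which encodes PD-L1, at -0.79, or 0.00 with *Flt3* entry alone. *Irf1*, an early interferon-gamma target, stood at -0.60, or -0.06 at the higher *Cd74* limit. *Ciita*, the master regulator of MHC class II that interferon-gamma can induce, was not among the lower genes, with 129 CPM in UEIS KI and 146 in UEIS LSL, at -0.19 (-0.52 to 0.14). The receptors did not differ by 1.5-fold, with *Ifnar1* at 0.13, *Ifnar2* at 0.07, *Ifngr1* at 0.13 and *Ifngr2* at 0.07.

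MHC class II genes hardly differed within members. Of 15 genes 13 were measured, with a median log2 ratio of 0.04. None was called in either direction, beside 2.5% higher and 3.08% lower over all measured genes. The rule set a floor on *Cd74*, which had 41837 CPM in UEIS KI members and 39754 in UEIS LSL members, and without any *Cd74* limit the list's median was -0.03. *H2-Aa*, the alpha chain of I-A, had 12069 CPM in UEIS KI and 11239 in UEIS LSL, at 0.10 (0.07 to 0.14). *H2-DMb2* had 489 CPM in UEIS KI and 474 in UEIS LSL, at 0.04 (-0.13 to 0.21). In the other barcodes the same list had a median of -1.16 over the 14 genes measured there, and -0.96 over the 13 measured in members. *H2-Aa* had 810 CPM in UEIS KI and 2587 in UEIS LSL in those barcodes. In *Cd74*-high C1q-high barcodes, taken with the same *Cd74* floor, the median was -0.01. The rule admits members only above the *Cd74* floor, so how far the selection sets this contrast was not tested.

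Some genes of MHC class I and its peptide supply were lower. Of 23 genes 19 were measured, with a median of -0.32, and all 19 were below 0. Beside 2.5% higher and 3.08% lower over all measured genes, 0 were higher and 5 were lower. The lower genes were *H2-T22*, a non-classical class I gene, at -1.20 (-1.85 to -0.60), *H2-Q7* at -0.95, the peptide transporter genes *Tap2* at -0.91 and *Tap1* at -0.65, and the immunoproteasome gene *Psmb9* at -0.66 (-1.02 to -0.31). *H2-K1* had 900.3 CPM in UEIS KI and 1218 in UEIS LSL, at -0.44 (-0.55 to -0.32), and *B2m*, the light chain of class I, 898 in UEIS KI and 1135 in UEIS LSL, at -0.34 (-0.46 to -0.22).

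**Figure D4:**
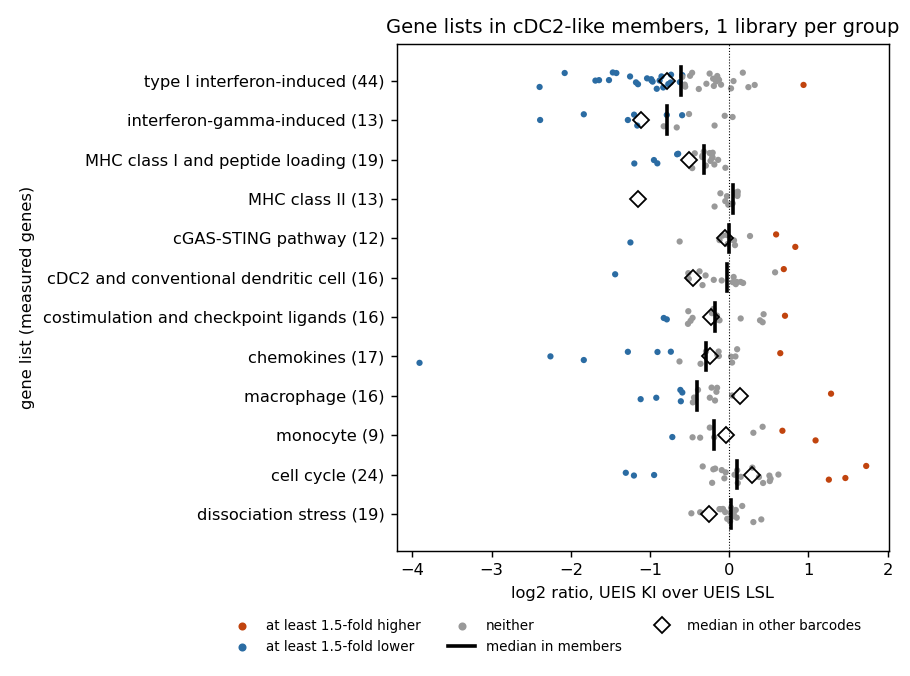
Log2 ratio of UEIS KI over UEIS LSL (horizontal axis) of each measured gene in 12 gene lists within cDC2-like members, with the number of measured genes in brackets; orange and blue points are genes at least 1.5-fold higher and lower, black bars are list medians in members and open diamonds list medians in all other barcodes. The bar lies at -0.61 for type I interferon genes, -0.79 for interferon-gamma genes and 0.04 for MHC class II genes, whose diamond lies at -1.16. Diamonds are medians over the genes measured in the other barcodes, which can differ from those measured in members.

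The macrophage list had called genes in both directions. Of 20 genes in the macrophage list 16 were measured, with a median of -0.41. In the other barcodes the list's median was 0.13, and 0.11 over the genes measured in members. In members 1 of the 16 was higher and 5 lower, beside 2.5% and 3.08% over all measured genes. The list includes *C1qa*, *C1qb* and *C1qc*, which the rule limited in members, so the rule enters these medians and their contrast. *Lyz2*, which encodes lysozyme (chr10:117277331-117282321, minus strand, mm10), had 980 UMIs or 1135 CPM in UEIS KI and 4704 UMIs or 2466 CPM in UEIS LSL, at -1.12 (-1.22 to -1.02). Thinned to 2000 UMIs, *Lyz2* was seen in 51.5% of members in UEIS KI and 69.5% in UEIS LSL, and in 75.9% and 72.8% of the *Cd3e* barcodes of UEIS KI and UEIS LSL, which should lack it (unthinned 85.4% and 94.5% of members, and 80.2% and 83.2% of *Cd3e* barcodes). The *Lyz2* share of members thus lay at or below background, and its difference is not read as one of member expression. *Trem2*, a lipid receptor gene, stood at -0.61 (-0.04 with *Flt3* entry alone), the high-affinity Fc receptor gene *Fcgr1* at -0.62 and arginase *Arg1* at -0.59. At the higher *Cd74* limit *Fcgr1* turned to 0.18 and *Arg1* to 0.58, and without doublet-called members *Arg1* stood at 0.02.

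*Spp1*, which encodes the secreted protein osteopontin, had 1031 UMIs or 1195 CPM in UEIS KI and 935 UMIs or 490 CPM in UEIS LSL, at 1.29 (1.16 to 1.41). A single UEIS KI member held 377 of the UMIs. Thinned, *Spp1* was seen in 61.2% of members in UEIS KI and 25.4% in UEIS LSL, and in 60.3% and 63.1% of the *Cd3e* barcodes of UEIS KI and UEIS LSL (unthinned 91.3% and 56.7% of members, and 79.1% and 58.8% of *Cd3e* barcodes). The members' shares were thus near or below background, and *Spp1* is not read as expressed by them. Without the top 5% of members the levels were 401 CPM in UEIS KI and 184 in UEIS LSL. In the other barcodes *Spp1* had 7187 CPM in UEIS KI and 2580 in UEIS LSL, a log2 ratio of 1.48. The part of free RNA from those barcodes in the members' level was not tested.

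*Hmox1*, which encodes haem oxygenase, had 66 UMIs or 76.5 CPM in UEIS KI and 442 UMIs or 232 CPM in UEIS LSL, at -1.60 (-1.99 to -1.22). The difference shrank to -0.70 without the top 5% of members of each library and to -0.05 at the higher *Cd74* limit. Thinned, *Hmox1* was seen in 10.7% of members in UEIS KI and 14.2% in UEIS LSL. In *Cd3e* barcodes its thinned shares were 24.1% in UEIS KI and 41.7% in UEIS LSL. The members' shares thus lay below background, and the *Hmox1* difference is not read as one of member expression. *Mt2*, a metallothionein gene, had 41.7 CPM in UEIS KI and 118 in UEIS LSL, at -1.50 (-2.05 to -0.99), but -0.05 with *Flt3* entry alone, -0.41 with no *Cd74* limit and -0.63 at the higher *Cd74* limit. *Plin2*, which encodes a coat protein of lipid droplets, had 108 CPM in UEIS KI and 230 in UEIS LSL, at -1.09 (-1.43 to -0.77), and -0.21 at the higher *Cd74* limit. In the lysosome and lipid list 3 of 18 measured genes were lower and 1 was higher, with a median of -0.21. Over all measured genes 3.08% were lower and 2.5% higher. The cholesterol exporter gene *Abcg1* stood at -0.87 (0.02 after thinning) and acid lipase *Lipa* at -0.73.

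The 1 higher gene of that list, the collagen-cutting protease gene *Ctsk*, and the acid phosphatase gene *Acp5* came from a single barcode. *Acp5* had 440 UMIs or 510 CPM in UEIS KI and 74 UMIs or 38.8 CPM in UEIS LSL, at 3.72 (3.36 to 4.09). A UEIS KI member held 387 of the *Acp5* UMIs and 264 of the 276 *Ctsk* UMIs. It had 26243 UMIs and 5072 genes, the doublet caller marked it, and at 20119.7 CPM of *Cd74* it lay nearest the limit. Without the top 5% of members *Acp5* had 38.2 CPM in UEIS KI and 25.2 in UEIS LSL.

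Of 16 genes in the monocyte list 9 were measured, with a median of -0.19. Among them 2 were higher and 1 lower, beside 2.5% and 3.08% over all measured genes. *Plac8*, expressed by recent monocytes and some dendritic cells, had 122 CPM in UEIS KI and 200.2 in UEIS LSL, at -0.72 (-1.04 to -0.40), and turned to 0.17 at the higher *Cd74* limit. *Chil3*, a chitinase-like protein gene of inflammatory monocytes, had 52 UMIs in 14 UEIS KI members and 54 in 12 UEIS LSL members, or 60.3 CPM in UEIS KI and 28.3 in UEIS LSL, at 1.09 (0.51 to 1.67). A single UEIS KI member held 31 of the *Chil3* UMIs, and without the top 5% of members 11.6 CPM remained in UEIS KI and 1.05 in UEIS LSL. *Ccr2*, the receptor that draws monocytes into tissue, had 407 CPM in UEIS KI and 482 in UEIS LSL, at -0.25 (-0.43 to -0.07).

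Chemokine genes were mixed. Of 22 genes 17 were measured, with a median of -0.29. Among them 1 was higher and 6 were lower, beside 2.5% and 3.08% over all measured genes. Beside *Cxcl9* and *Cxcl10*, the lower ones were *Ccl4*, *Ccl2*, *Cxcl1* and *Ccl24*. *Ccl4*, which encodes an inflammatory chemokine, had 830 CPM in UEIS KI and 1555 in UEIS LSL, at -0.91 (-1.03 to -0.79). *Ccl2*, the ligand of CCR2, had 184 CPM in UEIS KI and 307 in UEIS LSL, at -0.74 (-0.9996 to -0.48). This call was lost with *Cd74* at 10000 CPM (-0.15) or 40000 (-0.08), after thinning (-0.20) and without the top 5% of members (-0.26). *Cxcl1*, which draws neutrophils, had 7 UMIs in 5 UEIS KI members and 74 in 21 UEIS LSL members, at -2.26 (-3.62 to -1.14). Both *Ccl2* and *Cxcl1* were higher in the other barcodes. There *Ccl2* had 1256 CPM in UEIS KI and 1270 in UEIS LSL, and *Cxcl1* 109 and 135. The part of free RNA from those barcodes in the members' levels was not tested.

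*Ccl24*, an eotaxin gene, had 4 UMIs in UEIS KI and 133 in UEIS LSL, at -3.91, but 1 UEIS LSL member held 117 of them, and without the top 5% of members 0 CPM remained in either library. *Ccl8* was the higher chemokine gene, with 81.1 CPM in UEIS KI and 51.9 in UEIS LSL, at 0.64 (0.18 to 1.10), and 0.07 after thinning. *Ccl17*, which draws CCR4+ T cells, had 244 CPM in UEIS KI and 241 in UEIS LSL, at 0.02 (-0.22 to 0.26). It was higher in mature dendritic cell-like barcodes with *Ccr7* and *Fscn1*, at 1151 CPM in UEIS KI and 1174 in UEIS LSL. *Cxcl2* had 1496 CPM in UEIS KI and 1642 in UEIS LSL, at -0.13 (-0.23 to -0.04).

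Among cytokines 8 of 21 were measured, 3 were lower and 0 higher, beside 3.08% lower and 2.5% higher over all measured genes. *Il1rn*, which encodes the interleukin 1 receptor antagonist, had 32.4 CPM in UEIS KI and 81.2 in UEIS LSL, at -1.32 (-1.96 to -0.74), with 40 of its 155 UEIS LSL UMIs in 1 member, and turned to 0.16 at the higher *Cd74* limit. *Tnf* had 83.4 CPM in UEIS KI and 138 in UEIS LSL, at -0.72 (-1.12 to -0.34). *Ltb*, which encodes lymphotoxin beta, had 9 UMIs in UEIS KI and 54 in UEIS LSL, at -1.44 (-2.64 to -0.41). *Il1b* itself had 2868 CPM in UEIS KI and 3473 in UEIS LSL, at -0.28 (-0.34 to -0.21). Among pattern recognition genes 2 of 16 measured were lower, *Cd14*, the lipopolysaccharide co-receptor, at 387 CPM in UEIS KI and 633 in UEIS LSL (-0.71, -0.89 to -0.53), and the lectin gene *Clec4a3* at -0.78. Thinned, *Cd14* was seen in 44.7% of members in UEIS KI and 59.9% in UEIS LSL. In *Cd3e* barcodes the shares were 29.3% in UEIS KI and 52.4% in UEIS LSL. The part of free RNA in the members' *Cd14* level was not tested.

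Few genes of the cDC2 and conventional dendritic cell list were called. Of its 22 genes, which include *Cd209a* and *Flt3* of the rule, 16 were measured, with a median of -0.03. Among them 1 was higher and 1 (*Ltb*) lower, beside 2.5% and 3.08% over all measured genes. The summed list, with the rule's genes in it, had 3690 CPM in UEIS KI and 4291 in UEIS LSL, at -0.22 (-0.28 to -0.16). *Irf4* (chr13:30749226-30766976, plus strand, mm10) had 35 UMIs or 40.6 CPM in UEIS KI and 48 UMIs or 25.2 CPM in UEIS LSL, at 0.69 (0.02 to 1.35), and stood at 0.06 after thinning. *Mgl2* had 961 CPM in UEIS KI and 1181 in UEIS LSL, at -0.30 (-0.42 to -0.18). *Clec10a* stood at -0.38 (-0.65 to -0.10), *Zbtb46* at 0.17 (-0.60 to 0.91) and *Kit* at 0.14 (-0.76 to 0.9985).

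Of 38 transcription factors 36 were measured, with a median of -0.06. Among them 1 was higher and 3 were lower, near the 2.5% and 3.08% over all measured genes. Among the lower ones were *Batf3*, a partner of IRF8 and IRF4 at AP-1 composite sites, at -0.82 (-1.35 to -0.32) and *Nfil3* at -0.69, and after thinning *Batf3* stood at -0.23 and *Nfil3* at -0.06. *Klf4*, which the differentiation of a cDC2 subset requires, had 570 CPM in UEIS KI and 450 in UEIS LSL, at 0.34 (0.18 to 0.50). *Irf8*, the factor of cDC1, had 111 CPM in UEIS KI and 112 in UEIS LSL, at -0.01 (-0.37 to 0.34).

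Of 22 costimulation and checkpoint genes 16 were measured, with a median of -0.18. Among them 1 was higher and 2 were lower, beside 2.5% and 3.08% over all measured genes. *Cd86*, which gives the second signal to T cells through CD28, had 140 CPM in UEIS KI and 104 in UEIS LSL, at 0.43 (0.10 to 0.77), under the 1.5-fold limit. *Cd83* had 455 CPM in UEIS KI and 530 in UEIS LSL, at -0.22 (-0.39 to -0.05), and *Cd40* stood at -0.46 (-1.25 to 0.27). The lower ones were the adhesion ligand gene *Icam1*, at -0.83 (-1.38 to -0.30), and *Cd274*. The inhibitory receptor gene *Lilrb4a* was higher at 0.70 (0.09 to 1.30) and turned to -0.34 after thinning.

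The genes ranked highest in UEIS KI members, besides *Acp5*, were of no common list. *Ube2c*, which encodes a ubiquitin-conjugating enzyme of mitosis, had 120 UMIs in 18 UEIS KI members and 96 in 23 UEIS LSL members, or 139 CPM in UEIS KI and 50.3 in UEIS LSL, at 1.47 (1.07 to 1.87), with 31 and 42 of the UMIs in 1 member of UEIS KI and of UEIS LSL, and turned to -0.04 at the higher *Cd74* limit. *Tppp3*, a tubulin polymerization gene, had 123 CPM in UEIS KI and 55.0 in UEIS LSL, at 1.16 (0.75 to 1.56), in 45 UEIS KI and 58 UEIS LSL members. *Lmna*, which encodes lamin A, stood at 0.74 (0.48 to 0.9995), *Tamalin*, a scaffold protein gene, at 0.84 (0.39 to 1.28; 0.10 at the higher *Cd74* limit), *Tspan13*, a tetraspanin gene, at 0.68 (0.39 to 0.96) and *Dapk1*, a kinase gene linked to cell death, at 0.78 (0.38 to 1.18). *Vim*, *Rbm3* and *S100a11* were abundant and narrowly bounded but under 1.5-fold, at 0.46 (0.40 to 0.52), 0.47 (0.38 to 0.56) and 0.47 (0.37 to 0.58).

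The lectin-like receptor genes seen in members were also somewhat higher. *Klrd1* (chr6:129591782-129598775, plus strand, mm10) had 496 CPM in UEIS KI and 358 in UEIS LSL, at 0.47 (0.29 to 0.65), and was seen in 84 of 103 UEIS KI members and 142 of 201 UEIS LSL members. *Klrk1* had 151 CPM in UEIS KI and 97.0 in UEIS LSL, at 0.64 (0.30 to 0.97). Both are best known from NK cells, whose other listed genes were not measured in members. *Ifitm1*, unlike *Ifitm3*, stood above 0, with 2088 CPM in UEIS KI and 1694 in UEIS LSL, at 0.30 (0.22 to 0.39). Among *Cd209a*-only members, the largest entry group, it was not higher, at 1470 CPM in UEIS KI and 1530 in UEIS LSL. Among *Flt3*-only members it stood higher in UEIS KI, at 2963 CPM against 2372 in UEIS LSL. Members with both genes are not given here, and the part of the mix of entry genes in the difference was not tested.

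Dividing members, with at least 2 UMIs of *Mki67* and *Top2a* together, were 13 of 103 (12.6%, 6.89 to 20.6) in UEIS KI and 20 of 201 (9.95%, 6.18 to 14.9) in UEIS LSL. Of 30 cell cycle genes 24 were measured, with a median of 0.10. Among them 3 were higher and 3 were lower, beside 2.5% and 3.08% over all measured genes. The higher ones act in mitosis, with *Ube2c*, the cyclin gene *Ccnb2* at 1.26 (0.67 to 1.85) and the kinetochore gene *Cenpf* at 1.73 (0.87 to 2.62), or 0.15 at the higher *Cd74* limit. The lower ones act in DNA synthesis, with *Mcm2* at -1.31 (-2.21 to -0.50), *Tyms* at -1.20 and *Rrm2* at -0.95. *Mki67* stood at 0.62 (-0.08 to 1.30). Without dividing members the type I median was -0.98.

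The entry gene split the members further, which is given as a description because the genes below were picked for their difference. Over both libraries, *Flt3*-only members had more *Irf8* than *Cd209a*-only members, at 301 and 398 CPM in UEIS KI and UEIS LSL against 80.5 and 75.5. *Plac8* had 212 and 394 CPM in *Flt3*-only members of UEIS KI and UEIS LSL, against 31.4 and 161 in *Cd209a*-only members. *Wdfy4*, which cross-presentation by cDC1 requires, had 96.2 and 131 CPM in *Flt3*-only members of UEIS KI and UEIS LSL, against 39.2 and 44.0 in *Cd209a*-only members. *Ifitm1* had 2963 and 2372 CPM in *Flt3*-only members of UEIS KI and UEIS LSL, against 1470 and 1530 in *Cd209a*-only members. Summed over both libraries without the rule's genes, the cDC1 list, which includes *Irf8* and *Wdfy4*, had 961 CPM in *Flt3*-only members. In *Cd209a*-only members it had 546. The cDC2 and conventional dendritic cell list had 2619 and 3191. The label cDC2-like is thus less sure for *Flt3*-only members.

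Other genes were higher in *Cd209a*-only members, while the summed macrophage list, here without the rule's genes, went opposite ways in the libraries. It had 3886 and 7068 CPM in *Flt3*-only members of UEIS KI and UEIS LSL, against 4348 and 5339 in *Cd209a*-only members. *Cd209d*, a close relative of *Cd209a* (both on chromosome 8), had 1 UMI in all *Flt3*-only members and 136 in *Cd209a*-only members. *Ear2*, a ribonuclease gene, had 6 UMIs in *Flt3*-only members and 301 in *Cd209a*-only members, and *Fcrls*, an Fc receptor-like gene, 3 and 141. *Mgl2* had 622 and 581 CPM in *Flt3*-only members of UEIS KI and UEIS LSL, against 1193 and 1221 in *Cd209a*-only members, and the mannose receptor gene *Mrc1* 70.5 and 98.4 against 212 and 191. *Pltp*, a phospholipid transfer gene, had 128 and 253 CPM in *Flt3*-only members of UEIS KI and UEIS LSL, against 524 and 599.6 in *Cd209a*-only members.

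**Figure D5:**
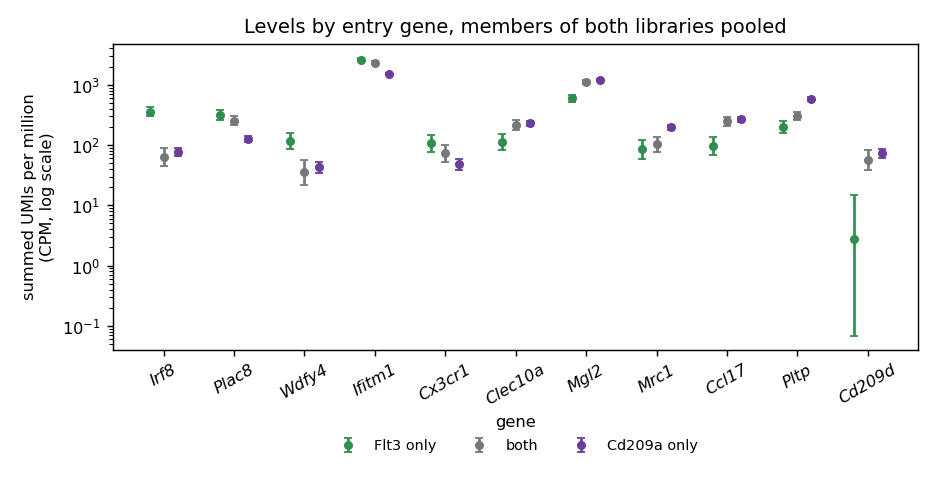
Level from summed UMIs (CPM, logarithmic axis) of 11 genes in cDC2-like members of both libraries pooled, by the gene through which they met the rule; points are pooled levels and bars exact 95% intervals of counting error. *Irf8*, *Plac8*, *Wdfy4* and *Ifitm1* are highest in *Flt3*-only members, and *Clec10a*, *Mgl2*, *Mrc1*, *Pltp* and *Cd209d* in *Cd209a*-only members.

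The type I list had a median below 0 within each entry group. With genes of at least 20 UMIs, it was -0.44 over 23 genes in *Flt3*-only members and -0.35 over 24 in members with both. In *Cd209a*-only members it was -0.88 over 54. *Isg15* had 25.7 CPM in UEIS KI and 286 in UEIS LSL among *Flt3*-only members, 70.9 in UEIS KI and 233 in UEIS LSL among members with both, and 68.7 in UEIS KI and 176 in UEIS LSL among *Cd209a*-only members. *Ccl17* differed in opposite directions, at 212 CPM in UEIS KI and 14.1 in UEIS LSL among *Flt3*-only members, and 30.4 in UEIS KI and 378 in UEIS LSL among members with both, groups of 22 to 35 members.

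Against the most similar barcodes, the members' type I level was compared as the list's summed CPM. It was 4783 in UEIS KI members and 6764 in UEIS LSL members, a log2 ratio of -0.50 (-0.55 to -0.45). In barcodes that met the rule but for C1q (9 in UEIS KI and 57 in UEIS LSL) it was -0.12 (-0.24 to -0.01), and in *Cd74*-high C1q-high barcodes without an entry gene or *Cxcl9* (233 and 953) it was -0.30 (-0.34 to -0.27). In mature dendritic cell-like barcodes with *Ccr7* and *Fscn1* (55 and 86) it was -0.59 (-0.70 to -0.49), and in all other barcodes -0.63 (-0.63 to -0.62). The difference was thus not limited to the members, and whether its size differs between these sets could not be tested with 1 library per group. The C1q-high set without an entry gene was also chosen without *Cxcl9*, an interferon-gamma gene that members could hold. Its -0.30 and the members' -0.50 thus rest on unlike selections.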

How the data were processed

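The 10x 3' v3 data, 1 library each for UEIS KI and UEIS LSL, were deposited by the authors as matrices of raw UMI counts per gene and barcode. Counting used Cell Ranger 8.0.1 per the file headers, while the submitters' processing notes name Cell Ranger 2.1.1 and mm10. The gene annotation is not given in the sources used here, and 52081 of 55357 gene IDs (94.1%) matched GENCODE vM21 on GRCm38, from which coordinates were taken. Totals were 99404988 UMIs over 9734 barcodes in UEIS KI and 92764697 over 9527 in UEIS LSL, of which 9442 and 9370 barcodes passed at least 500 UMIs, 200 genes and at most 10% mitochondrial UMIs.

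Members were taken by their rule and their UMIs summed per library, since cells are not replicates. CPM carry exact Poisson 95% intervals, ratios exact conditional binomial intervals and shares Clopper-Pearson intervals, all for counting error only, and where a library had no count, ratios used 3 counts in its place. A gene was measured with 50 UMIs over both libraries and called at 1.5-fold or more with its interval on that side of 1. Scrublet, as run in scanpy, marked the top 0.8% of barcodes per 1000, and its calls were kept. The calculation was tested on simulated data. Thinning drew 2000 UMIs per barcode. Promoters came from RefSeq (GRCm38.p6) and both strands were searched.

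The members and the 33 gene lists were chosen with earlier results of these data known. Named genes were up to 10 highest and 10 lowest by the ratio bound nearest 1, at 50 CPM or more and at 0.25 or more of the level in other barcodes, with predicted, mitochondrial, ribosomal, haemoglobin, immunoglobulin, T cell receptor and sex-linked genes left out. In each list the 2 most abundant and the most clearly called gene each way were added, with the rule's genes, dendritic cell markers and the 10 genes leading members over other barcodes. Other genes, *Ifit1* and *Cd86* among them, were named after their values were seen. Alternatives changed the quality limits, doublet calls, *Cd74*, C1q and entry limits, depth, weighting, scaling, mix of entry genes, dividing members, UMI minimum and fold. Python 3.11.15, numpy 2.4.6, scipy 1.17.1, pandas 2.3.3, scanpy 1.11.5 and matplotlib 3.10.9 were used. Some genes are not reported here.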

Additional observations from a re-analysis of the deposited data

Results flagged for a closer look

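In 5 genes the members and all other barcodes differed between the libraries in opposite directions, and the difference was not tested. *Tspan13* had a log2 ratio of UEIS KI over UEIS LSL of 0.68 (0.39 to 0.96) in members and -0.86 in the other barcodes, where it had 17.9 CPM in UEIS KI and 32.4 in UEIS LSL. *Klrk1* stood at 0.64 in members and at -1.01 in the others (6.21 CPM in UEIS KI and 12.5 in UEIS LSL). *Ifih1* stood at 0.94 in members and at -0.65 in the others (11.7 CPM in UEIS KI and 18.4 in UEIS LSL). *Cd209d* stood at -1.43 (-2.12 to -0.80) in members and at 1.67 in the others (12.5 CPM in UEIS KI and 3.92 in UEIS LSL). *Ccl24* stood at -3.91 in members and at 0.80 in the others (34.9 CPM in UEIS KI and 20.01 in UEIS LSL), with 117 of its 133 UEIS LSL member UMIs in 1 barcode.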

How the results depend on the processing

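No paired analysis was possible because each group has 1 library and the labels carry no replicate numbers, and for the same reason no replicate could be left out. The log2 share ratio stayed between -1.27 and -0.80 under the other alternatives but was -0.38 with *Flt3* entry alone. List medians ranged from -0.98 (without dividing members) to -0.40 (*Cd74* limit at 40000) for type I, -1.21 to -0.50 for interferon-gamma and -0.07 to 0.13 for MHC class II genes, so that the interferon medians stayed below 0 in all alternatives run and the MHC class II median lay on either side of it. Counts of genes moved most. Against 142 higher and 175 lower, there were 74 and 89 with *Cd74* at 40000, 44 and 44 after thinning, 63 and 114 at 100 UMIs, and 30 and 64 at 2-fold. With every member weighted alike there were 318 higher and 375 lower, and with the same mix of entry genes 217 and 339, both without use of the interval. At 20 UMIs 232 were higher, with *Flt3* entry alone 89 were lower, and with no *Cd74* limit, chosen after seeing the data, 219 were higher. With *Cd74* at 40000 the ratio turned to -0.038 for *Ube2c*, 0.99 for *Rsad2*, 0.17 for *Plac8*, 0.16 for *Il1rn*, 0.20 for *Irf7*, 0.18 for *Fcgr1*, 0.58 for *Arg1* and 0.19 for *Ifi204*. After thinning it turned to -0.34 for *Lilrb4a*, -0.48 for *Enpp1* and 0.018 for *Abcg1*, with C1q under 1000 to 0.41 for *Ccl24*, without doublet-called members to 0.022 for *Arg1*, and with *Flt3* entry alone to 0.00444 for *Cd274*. The cause was not tested. With 103 members in UEIS KI and 201 in UEIS LSL, genes under 50 UMIs were beyond this depth.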

Other observations

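The cGAS-STING pathway, which senses cytosolic DNA and leads to interferon-beta, showed no common direction in members. Of 22 genes 12 were measured, with a median log2 ratio of 0.00. Among them 2 were higher in UEIS KI and 1 was lower, beside 2.5% and 3.08% over all measured genes. *Cgas*, the DNA sensor, had 17 UMIs in UEIS KI and 58 in UEIS LSL, at -0.63, and *Sting1*, its adaptor, had 89.2 CPM in UEIS KI and 91.2 in UEIS LSL, at -0.03. *Enpp1*, which breaks down the second messenger cGAMP, was higher at 0.83 but turned to -0.48 after thinning, *Pqbp1* was higher at 0.59, and the channel gene *Lrrc8a* was lower at -1.25. *Ifnb1* itself had 0 UMIs in UEIS KI members and 12 UMIs in 2 UEIS LSL members.

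Glycolysis and hypoxia genes had a median of -0.16 with 1 of 19 measured genes lower (*Pfkl*, -0.67), and dissociation stress genes a median of 0.02 with 0 of 19 called. Over all measured genes 2.5% were higher and 3.08% lower. Among the 16 measured growth factor receptors 0 were called and the median was 0.11. *Lyz1*, a lysozyme gene close in sequence to *Lyz2*, had 36 UMIs in 24 UEIS KI members and 88 UMIs in 3 UEIS LSL members, 86 of them in 1, while in the other barcodes its log2 ratio was 4.02, with 414 CPM in UEIS KI and 25.5 in UEIS LSL.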
